A study of Fukomys damarensis and Heterocephalus glaber and Cavia porcellus with 28 samples.

Results

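The uncoupling proteins, the thyroid hormone enzyme and receptors, and the PGC-1 coactivators were followed as a group of 8 genes (Ucp1, Ucp2, Ucp3, Dio1, Thra, Thrb, Ppargc1a and Ppargc1b), chosen by name among the 13928 rows of mouse gene identifiers that a heart table and a liver table share. All 8 had a row in both tables. The libraries were made from total RNA after removal of ribosomal RNA, and cover 4 species: 2 African mole-rats, the naked and the Damaraland, and 2 outgroups, the guinea pig and the mouse. There were 14 heart libraries (naked 3, Damaraland 5, guinea pig 3, mouse 3) and 14 liver libraries (naked 4, Damaraland 5, guinea pig 3, mouse 2). Naked mole-rats were 13 to 17 months old, Damaraland mole-rats 36 to 48 months, guinea pigs 2.3 months and mice 2 months, so age and species cannot be told apart. All animals were male except 1 female Damaraland mole-rat, whose liver was used as replicate 4. The labels name 18 animals, 10 of which gave both tissues, and replicates within a species and tissue were separate animals. Damaraland animal DMR1, among the 10, is labelled 48 months for its heart and 36 months for its liver.

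Uncoupling proteins are carriers of the inner mitochondrial membrane. UCP1 lets protons return without making ATP, so that brown fat releases heat, while UCP2 is expressed in many tissues, including immune cells, and UCP3 mainly in muscle. The liver is a main site of the type 1 deiodinase encoded by Dio1, which removes iodine from thyroxine and its products, and the receptors encoded by Thra and Thrb carry the hormone's signal to genes, with Thra the leading receptor in heart and Thrb in liver. The coactivators encoded by Ppargc1a and Ppargc1b bind nuclear receptors and other factors and drive mitochondrial gene expression.

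The values are the authors' variance-stabilised, log2-like values, with a floor of 5.36 in heart and 4.29 in liver that stands for 0 reads. They compress differences between low genes: a 2-fold change from 1000 scaled reads moves the value by 0.95 in heart and 0.97 in liver, but one from 10 scaled reads by only 0.28 and 0.39. Scaled reads are the whole reads recovered from the values, divided by the library's size factor. Depth ran from 4089633 to 26985779 reads in heart and from 11220505 to 21467939 reads in liver. The shallowest, naked mole-rat heart replicate 3, also stood apart from its group in several members. Calls of members that changed on leaving it out are also given without it, while genes outside the 8 are given with it only. How genes were matched between species is not given in the sources used here, nor is whether the deposited values were corrected for transcript length. No such correction was made here. Among genes that passed a filter on low values, 8 to 33 of 10667 in heart had 0 reads in every library of 1 species, and in liver 24 to 168 of 10887. Hepatocyte markers summed to at least 78535 RPM (a gene's reads as a share of the library, scaled to a common depth) in every liver and cardiomyocyte markers to at least 49223 in every heart, so the markers of each labelled tissue were present. In bulk tissue, fewer cells of a type and less RNA per cell cannot be told apart.

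A gene was called different between species when limma, fitted over all genes that passed the filter, gave a Benjamini-Hochberg adjusted p under 0.05 and a difference of at least 1 in the value. The filter kept 6 members in heart, all but Ucp1 and Dio1, and 6 in liver, all but Ucp1 and Ucp3. Ucp3 passed in heart only through the mouse, where it was high, so its difference there was built into the filter. The same holds for some list genes named below. In heart these were Crym and Hnf4a, through naked mole-rat, and Kcnk3, through mouse. In liver they were Elovl3, through mouse, and Esrrb, Slc25a27 and Kcnk3, through Damaraland. Bmp7 and Pck1 in heart and Perm1 in liver passed only through both mole-rats together, and Ckb in liver only through both outgroups together. They are counted in their lists, but their calls are not read as test results.

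Ucp1, the heat-producing carrier of brown fat, was almost absent. In heart it had 55 and 48 reads in Damaraland mole-rat replicates 1 and 3, or 3.73 and 2.18 RPM, and 0 reads in the other 12 libraries. A count of 0 allows up to 3 reads, which is 0.111 to 0.734 RPM over those 12 libraries and covers counting error only. In liver, Damaraland mole-rat replicates 1 to 5 had 1, 1, 0, 2 and 3 reads and every other library had 0. Ucp1 reads were thus seen in 1 of the 4 species, and in heart in 2 of its 5 animals. Without the filter, the Damaraland heart mean of 5.91 did not pass limma's test against naked mole-rat, guinea pig or mouse, each at 5.36 (adjusted p = 0.119, 0.121 and 0.112). In liver the same contrasts had an adjusted p of 0.00885, 0.0152 and 0.0319, at a difference of 0.34 that rests on at most 3 reads a library.

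Fat cell genes were present in the same Damaraland hearts. Lep, the leptin gene of fat cells, had 48, 0, 64, 0 and 123 reads in replicates 1 to 5, so it was seen in both libraries with Ucp1 reads and was highest in a library without them. Adipoq, the adiponectin gene of fat cells, stood at 4.14, 3.72, 2.997, 14.6 and 10.4 RPM, lowest in replicate 3 and highest in replicates 4 and 5, which had no Ucp1 reads. Cfd, another adipocyte marker, stood at 40.3, 23.7, 51.3, 15.5 and 24.4 RPM, highest in replicates 1 and 3, which had Ucp1 reads. The 8 adipocyte markers summed to 668, 517, 513, 514 and 464 RPM in the same order, and Fabp4 and Pnpla2 gave 351 and 219 of the 668. Among the other species the sum ran from 281 to 629 RPM. Of 16 brown and beige fat genes, 10 had a row, and their sum was 741, 505, 458, 366 and 303 RPM in Damaraland replicates 1 to 5. Cox8b and Cox7a1, cytochrome oxidase subunit genes that heart muscle also expresses, gave 393 and 252 of the 741, so the sum is not a measure of brown fat. Cox7a1 stood at 252, 191, 255, 117 and 98.1 RPM in replicates 1 to 5, also highest in replicates 1 and 3. Prdm16, a brown fat regulator, stood at 41.4, 38.8, 35.7, 53.8 and 65.1 RPM. The sum of the 10 brown and beige fat genes was 1407 to 1539 RPM in mouse hearts, which had no Ucp1 reads. Lhx8, a brown fat transcription factor gene, was at 0 reads in all hearts. Their part in the Ucp1 reads was not tested.

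Ucp3, the muscle uncoupling protein, was high in mouse heart alone. Mouse heart replicates 1 to 3 had 2445, 1876 and 2056 reads (values 10.73, 10.59 and 10.76). Naked mole-rat hearts had 1, 2 and 1 reads, guinea pig hearts 1 each, and all 5 Damaraland hearts were listed at 0. The mouse mean of 10.69 stood above naked mole-rat by 5.03, above Damaraland by 5.33 and above guinea pig by 5.14, given with no test since the mouse values brought the gene past the filter. The other 3 species had at most 2 reads a library, so no fold is given among them. In liver Ucp3 had 11, 12 and 4 reads in guinea pigs and at most 2 in any other library, and it did not pass the filter. Without the filter, limma gave -0.71 for naked mole-rat minus guinea pig, -0.74 for Damaraland minus guinea pig and 0.56 for guinea pig minus mouse (adjusted p = 0.000867, 0.000417 and 0.018), all under the size threshold. An exact permutation test of guinea pig against Damaraland liver gave p = 0.0357, the smallest that 3 against 5 allows, and 0.214 after adjustment over 12 such tests.

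Ucp2, the widely expressed family member, differed in both tissues, by mouse in heart and by naked mole-rat in liver. In heart it read 10.57, 9.58 and 9.58 in mice, 9.01, 7.64 and 8.21 in guinea pigs, 8.63, 8.11, 8.33, 8.91 and 8.04 in Damaraland mole-rats, and 8.45, 7.70 and 7.80 in naked mole-rats. Every mouse heart lay above every heart of the other species, whose ranges overlapped one another. Relative to mouse, Ucp2 was lower by 1.93 in naked mole-rat (SE 0.34, limma adjusted p = 0.000105), by 1.50 in Damaraland (SE 0.30, 0.000354) and by 1.63 in guinea pig (SE 0.34, 0.000593), which is 5.06, 3.46 and 3.60 times as many scaled reads in mouse. None of the 3 contrasts without mouse was called (limma adjusted p = 0.24 to 0.742). The average of the mole-rats against the outgroups was -0.90 and not called, but reached -1.02 without naked mole-rat heart replicate 1 and -1.06 without guinea pig heart replicate 2.

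In liver the order of Ucp2 was another. Naked mole-rat livers read 7.28, 7.41, 6.55 and 7.01, below all others. Damaraland livers read 9.18, 8.96, 9.05, 8.73 and 8.76, guinea pig livers 8.23, 8.39 and 8.81, and mouse livers 8.65 and 8.45. Ucp2 in naked mole-rat liver lay 1.88 below Damaraland (SE 0.18, limma adjusted p = 7.16e-08), 1.41 below guinea pig (SE 0.20, 1.06e-05) and 1.49 below mouse (SE 0.23, 2.57e-05), and the other species had 4.52, 3.21 and 3.35 times its scaled reads. Damaraland, guinea pig and mouse were not called apart. Ucp2 is also expressed by macrophages, and 9 of 14 macrophage and leukocyte markers had a row. Their sum was 303 to 618 RPM in naked mole-rat liver, 202 to 334 in Damaraland, 329 to 504 in guinea pig and 168 to 188 in mouse. Cd14 alone gave 203 to 349 RPM in naked mole-rat liver and 1.52 and 2.29 in mouse, and Cd163 was at 0 in all 4 naked mole-rat livers. In heart the sum was 100 to 143 RPM in mouse, and 48.8 to 263 over the other species. The part of these cells in the Ucp2 differences was not tested.

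**Figure D1:**
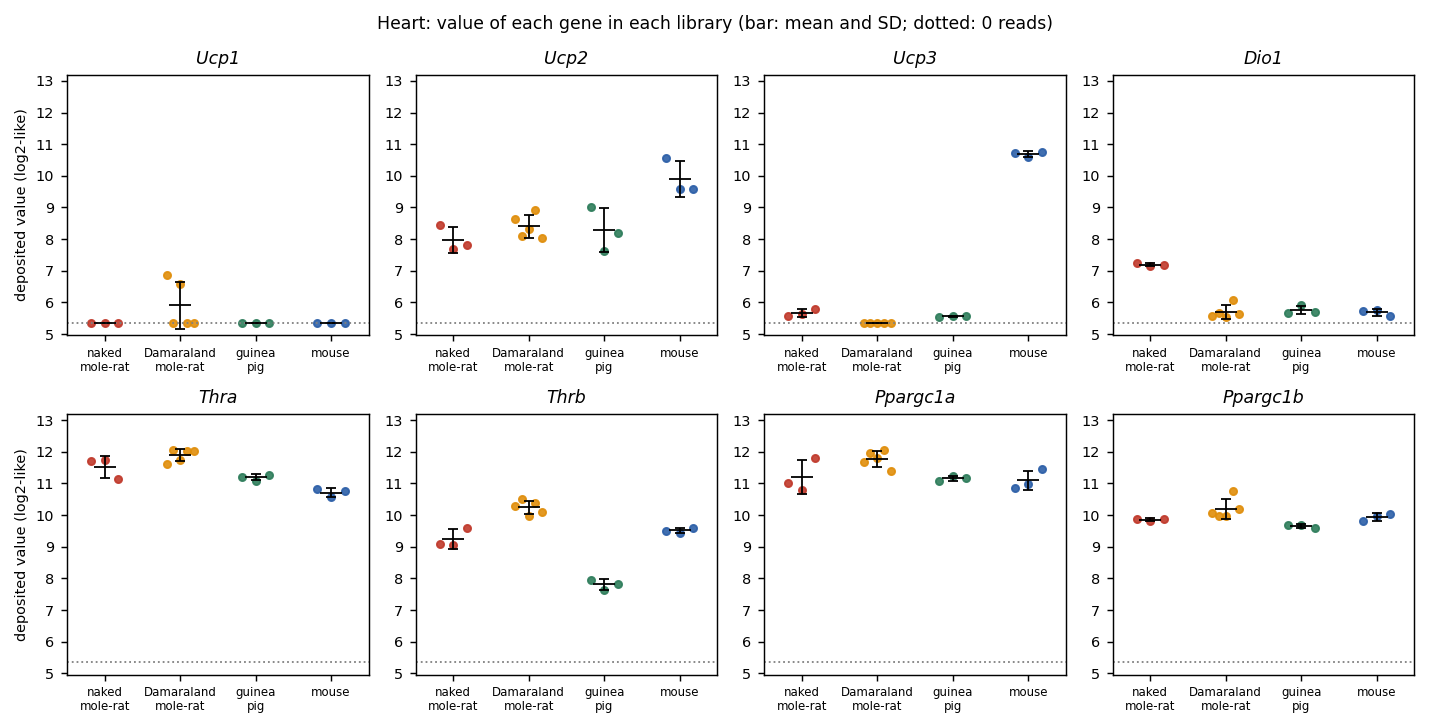
Value of each of the 8 genes in each of the 14 heart libraries, by species. The vertical axis is the deposited log2-like value, points are libraries, bars are the mean and SD, and the dotted line is the value of 0 reads. Ucp3 stands far above the floor in mouse alone, Thrb is lowest in the 3 guinea pigs, and Dio1 is above 7 only in the 3 naked mole-rats.

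Dio1, the type 1 deiodinase, showed the widest difference of any member in liver. Naked mole-rat livers read 11.41, 12.22, 11.13 and 10.82, guinea pig livers 11.29, 11.34 and 11.56, and mouse livers 12.70 and 12.40. Damaraland livers read 5.73, 7.51, 6.67, 7.36 and 7.80, from 19, 158, 93, 121 and 175 reads. Every Damaraland liver was thus below every other liver, by more than 3 in the value, and the Damaraland livers also varied most among themselves (SD 0.83).

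Damaraland Dio1 was lower than naked mole-rat by 4.38 (SE 0.34, limma adjusted p = 4.96e-09), lower than guinea pig by 4.38 (SE 0.37, 1.69e-08) and lower than mouse by 5.53 (SE 0.42, 5.77e-09), and these species had 26.0, 24.4 and 54.7 times its scaled reads. Naked mole-rat and guinea pig had means of 11.393 and 11.394, a difference of -0.00 (SE 0.39, adjusted p = 1). Mouse was above naked mole-rat by 1.15 (SE 0.44, limma adjusted p = 0.0292) and above guinea pig by 1.15 (SE 0.46, 0.0407). Both of these calls with mouse lay near the threshold: without naked mole-rat liver replicate 3 or 4, or either mouse, the first had an adjusted p of 0.0603, 0.0785, 0.162 or 0.0725, and the second was lost on leaving out any 1 guinea pig or mouse liver (0.0567 to 0.186). The average of both mole-rats against both outgroups was also called, at -2.77 (SE 0.29, adjusted p = 1.96e-07), although it does not describe naked mole-rat, whose mean equalled that of guinea pig.

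**Figure D2:**
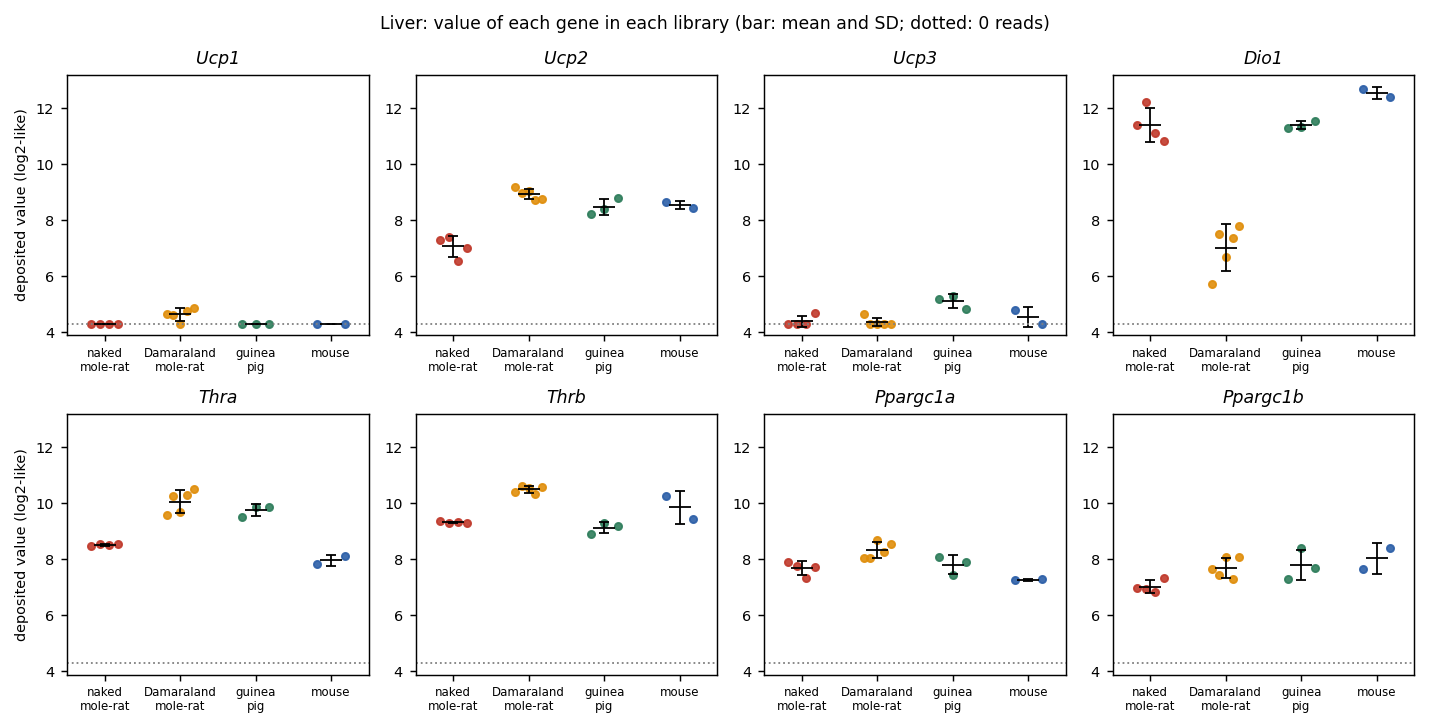
Value of each of the 8 genes in each of the 14 liver libraries, by species, drawn as for heart. Dio1 lies between 5.73 and 7.80 in the 5 Damaraland mole-rats and between 10.82 and 12.70 in all others, and Ucp2 is lowest in the 4 naked mole-rats.

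In heart Dio1 was near the floor except in the naked mole-rat. Naked mole-rat hearts had 97, 111 and 20 reads (values 7.26, 7.15 and 7.18), which is 5.08, 4.93 and 4.89 RPM in spite of the different depths. The other 11 hearts had 1 to 11 reads and values of 5.54 to 6.08. Without the filter, limma put naked mole-rat above Damaraland by 1.50 (adjusted p = 5.53e-08), above guinea pig by 1.43 (3.4e-07) and above mouse by 1.51 (1.39e-07). The exact permutation tests were at the smallest p that the groups allow, 0.0357, 0.1 and 0.1, and 0.214 to 0.24 after adjustment.

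Hepatocyte markers, taken as a sum, were also highest in those hearts. The 8 hepatocyte markers summed to 20.9 to 75.8 RPM in mouse heart, 294 to 453 in guinea pig, 266 to 529 in Damaraland and 794 to 2015 in naked mole-rat. Apoa1 alone gave 231 to 288 of the guinea pig sum. Alb, which encodes albumin, stood in heart at 0.174% of its liver mean in Damaraland, 0.0987% in guinea pig and 0.0381% in mouse. In naked mole-rat heart, Alb stood at 1.09% of its mean in naked mole-rat liver and the other 7 markers at 0.998% to 1.97%, while Dio1 stood at 2.82%. The lowest heart library gave 2.78% for Dio1 and the highest 2.88%, a narrower range than the 0.496% to 1.42% of Alb. In Damaraland heart Dio1 stood at 2.93% of a liver mean that was itself low, from 1 to 11 reads. Limma called 7 of the 8 hepatocyte markers higher in the average of the mole-rat hearts, where 1153 of all 10667 genes tested were, but only Alb was higher in both mole-rats. Their part in the Dio1 reads of naked mole-rat heart was not tested.

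**Figure D3:**
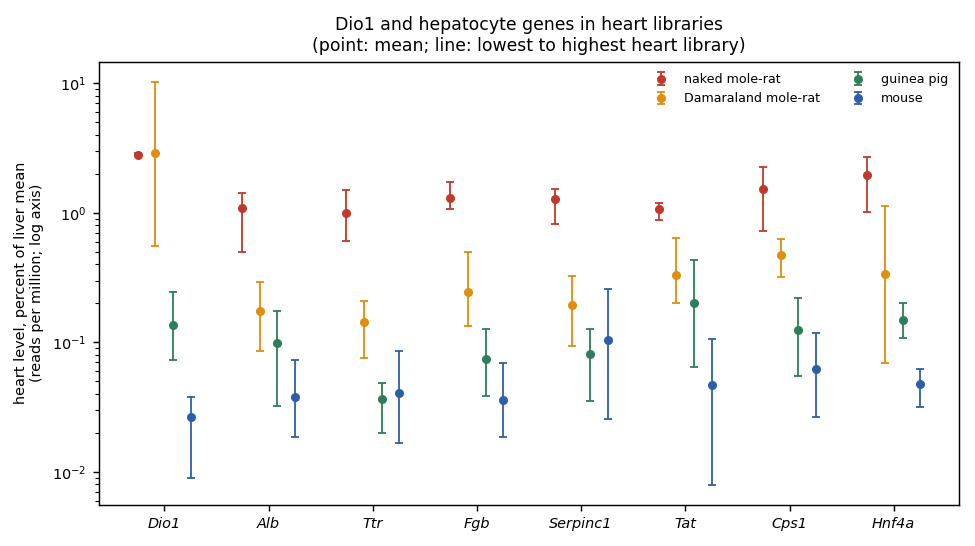
Level of Dio1 and 7 hepatocyte markers in heart libraries as a percent of the same species' liver mean, from depth-scaled reads, on a log axis (Apoa1, nearly absent from guinea pig liver, is left out). Points are means and lines run from the lowest to the highest heart library. Naked mole-rat heart sits near 1% to 3% for all 8 genes.

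Thra, which encodes the hormone receptor alpha and a form that does not bind the hormone, was higher in Damaraland than in mouse in both tissues. Gene-level values cannot tell these forms apart. In heart it read 11.61, 12.07, 11.76, 12.03 and 12.03 in Damaraland, 11.72, 11.74 and 11.13 in naked mole-rat, 11.22, 11.09 and 11.28 in guinea pig and 10.81, 10.57 and 10.76 in mouse. The order of means was Damaraland, naked mole-rat, guinea pig, mouse, and of the 6 pairs only its ends were called: 1.18 (SE 0.17, limma adjusted p = 1.13e-05), or 2.35 times the scaled reads. Naked mole-rat minus mouse was 0.81 (adjusted p = 0.00122), short of the size threshold, and 1.01 (9.63e-05) without naked mole-rat heart replicate 3.

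In liver 4 pairs of species were called for Thra. Damaraland livers read 9.58, 10.27, 9.71, 10.29 and 10.51 and guinea pig livers 9.53, 9.88 and 9.89, and these ranges overlapped. Naked mole-rat livers followed at 8.48, 8.57, 8.50 and 8.54, and mouse livers were lowest at 7.83 and 8.11. Damaraland exceeded naked mole-rat by 1.55 (SE 0.18, limma adjusted p = 6.48e-07) and mouse by 2.10 (SE 0.22, 2.91e-07). Guinea pig exceeded naked mole-rat by 1.24 (SE 0.20, 3.67e-05) and mouse by 1.80 (SE 0.24, 6.38e-06). The end of one Thra transcript overlaps Nr1d1, a clock gene on the opposite strand, and use of strand in counting is not given in the sources used here. Nr1d1 read 9.97 to 10.72 in mouse liver, 9.69 to 10.00 in guinea pig, 8.48 to 9.22 in Damaraland and 7.20 to 9.18 in naked mole-rat. Its part in the Thra values was not tested.

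Thrb, which encodes the receptor beta, had its highest mean in Damaraland and its lowest in guinea pig in both tissues. Guinea pig hearts read 7.96, 7.64 and 7.83, more than 1 below any other heart. Damaraland hearts read 10.28, 10.51, 9.98, 10.38 and 10.09, above all others, and naked mole-rat hearts (9.10, 9.04 and 9.59) overlapped mouse hearts (9.50, 9.44 and 9.60). Relative to guinea pig, Thrb was higher by 2.44 in Damaraland (SE 0.16, limma adjusted p = 2.05e-09), by 1.43 in naked mole-rat (SE 0.18, 4.15e-06) and by 1.71 in mouse (SE 0.18, 5.97e-07), or 7.60, 3.56 and 4.33 times the scaled reads.

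Damaraland also exceeded naked mole-rat in heart Thrb by 1.0013 (SE 0.16, limma adjusted p = 5.45e-05), a difference at the size threshold that fell to between 0.90 and 0.99 without naked mole-rat replicate 1 or 2 or Damaraland replicate 1, 2 or 4. Damaraland minus mouse was 0.73 (adjusted p = 0.000854). The mean of both mole-rats was above that of both outgroups by 1.08 (SE 0.12, limma adjusted p = 8.01e-07), and by 0.9955 without naked mole-rat heart replicate 3. Naked mole-rat and mouse were not called apart (-0.27, SE 0.18, adjusted p = 0.203), so the average does not describe both mole-rats.

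In liver Thrb read 10.41, 10.61, 10.56, 10.34 and 10.60 in Damaraland, 9.36, 9.30, 9.33 and 9.31 in naked mole-rat, 8.91, 9.30 and 9.18 in guinea pig, and 10.28 and 9.44 in mouse. The 4 naked mole-rats were close together (SD 0.03), while the 2 mice lay apart (SD 0.60). Damaraland exceeded naked mole-rat by 1.18 (SE 0.15, limma adjusted p = 3.25e-06) and guinea pig by 1.37 (SE 0.17, 1.65e-06). Contrasts with mouse turned on the animal: Damaraland minus mouse was 0.65, and 1.07 (adjusted p = 0.000284) without mouse liver replicate 1, while guinea pig minus mouse was -0.73, and -1.15 (0.000292) without mouse liver replicate 2.

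Ppargc1a, the coactivator of mitochondrial and fasting genes, differed little. Heart values were 11.68, 11.97, 11.79, 12.05 and 11.41 in Damaraland, 11.02, 10.80 and 11.80 in naked mole-rat, 11.08, 11.23 and 11.17 in guinea pig and 10.87, 10.99 and 11.45 in mouse. Damaraland was highest in mean, and naked mole-rat replicate 3, the shallowest library, lay above the other 2 of its group. No pair of species was called in heart by limma or by voom, and 3 of 6 pairs had an unadjusted limma p under 0.05. In these pairs Damaraland exceeded naked mole-rat by 0.57, guinea pig by 0.62 and mouse by 0.67. They passed adjustment (limma adjusted p = 0.0298, 0.0202 and 0.0111) and fell short only of the size threshold. In liver the values were 8.06, 8.06, 8.69, 8.26 and 8.57 in Damaraland, 7.92, 7.77, 7.33 and 7.73 in naked mole-rat, 8.10, 7.44 and 7.92 in guinea pig and 7.25 and 7.29 in mouse. Damaraland minus mouse was called at 1.06 (SE 0.22, limma adjusted p = 0.000526), or 2.45 times the scaled reads, and fell under the size threshold without Damaraland liver replicate 3 (0.97) or 5 (0.9962).

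Ppargc1b, its close relative, read 9.98 to 10.75 in Damaraland heart, 9.81 to 9.89 in naked mole-rat, 9.59 to 9.70 in guinea pig and 9.80 to 10.03 in mouse. No pair was called in heart by limma or voom, with 1 of 6 at an unadjusted limma p under 0.05. That pair, Damaraland minus guinea pig, was 0.53 (limma adjusted p = 0.0105), short only of the size threshold. In liver it read 6.98, 6.94, 6.85 and 7.35 in naked mole-rat, 7.65, 7.43, 8.08, 7.29 and 8.08 in Damaraland, 7.31, 8.39 and 7.69 in guinea pig and 7.64 and 8.43 in mouse. Naked mole-rat minus mouse was called at -1.0028 (SE 0.30, limma adjusted p = 0.0076), and was -0.61 (0.176) without mouse liver replicate 2. It also fell under the size threshold without naked mole-rat liver replicate 1, 2 or 3 (-0.99, -0.97 and -0.94), while naked mole-rat minus guinea pig reached -1.01 (0.00514) without guinea pig liver replicate 1.

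Counted over the 6 members tested in each tissue, limma called 0 of 6 in heart and 0 of 6 in liver with 1 sign in all 4 pairings of mole-rat and outgroup, where 4.68% and 6.29% of all genes tested were. At such shares a count of 0 among 6 says nothing about the members. The heart means of Thra and Ppargc1a were higher in each mole-rat than in each outgroup, by 0.34 to 1.18 and by 0.05 to 0.67. The count was 0 in both tissues for voom, and also at an unadjusted limma p under 0.05 with no size threshold. For the average of the mole-rats against the average of the outgroups, 2 of 6 members were called in heart (Thrb higher and Ucp3 lower, the second fixed by the filter; 23.4% of all genes tested) and 1 of 6 in liver (Dio1 lower; 28.1%).

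By pair of species the members' counts are given beside the share of all genes tested that were called, and with 6 members no share is read as high or low. In heart, naked mole-rat against Damaraland called 1 of 6 (29.4% of all genes tested), against guinea pig 1 (33%) and against mouse 2 (38.2%). Damaraland against guinea pig called 1 (29.7%) and against mouse 3 (34.9%), and guinea pig against mouse 3 (32.1%). Ucp3, whose call the filter fixed, is 1 of the calls in each heart pair with mouse. In liver the counts were 4 (34.2%), 2 (37.8%) and 3 (41.2%) for naked mole-rat against Damaraland, guinea pig and mouse, 2 (36.2%) and 3 (39.2%) for Damaraland against guinea pig and mouse, and 2 (37.2%) for guinea pig against mouse. At least 1 pair was called for 4 of 6 members in heart, Ucp3 among them, and 6 of 6 in liver, where 72% and 76.4% of genes at large had one.

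The balance between the receptors was read within each library, as the log2 ratio of Thra to Thrb reads, which library size does not touch. It was higher in heart than in the liver of the same animal in 10 of 10 animals, by 2.90 on average (SD 0.68, range 1.96 to 3.84), a 7.48-fold shift. The exact sign-flip permutation test over animals gave p = 0.00195, the smallest it can give. The shift was 3.71 and 3.84 in 2 naked mole-rats, 1.96 to 2.88 in 4 Damaraland mole-rats, 3.11 to 3.39 in 3 guinea pigs and 2.68 in 1 mouse.

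Between species the receptor ratio was highest in guinea pig in both tissues. In heart the mean log2 ratio was 3.92 in guinea pig (SD 0.17), 2.45 in naked mole-rat (0.70, with 2.81, 2.90 and 1.64 in replicates 1 to 3), 1.72 in Damaraland (0.24) and 1.29 in mouse (0.10), and in liver 0.67 (0.07), -0.87 (0.07), -0.45 (0.40) and -2.06 (0.85). All guinea pig libraries lay above all others in both tissues. Transcript length may enter this ratio, so only its differences are read. Of 24 exact permutation tests of species pairs for this ratio and that of the coactivators, 2 had p = 0.0357, both for Damaraland against guinea pig in the receptor ratio, and none passed after adjustment (lowest adjusted p = 0.229). With 3 animals against 3, no p under 0.1 can be reached.

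The ratio of Ppargc1a to Ppargc1b was also higher in heart, in 9 of 10 animals, by 1.21 on average (SD 0.83, range -0.11 to 2.63; exact sign-flip permutation p = 0.00391). The exception was a naked mole-rat. The shift was -0.11 and 0.56 in 2 naked mole-rats and 0.80 to 1.34 in 4 Damaraland mole-rats. It was 0.67 to 2.63 in 3 guinea pigs and 2.42 in 1 mouse. The ratio of Ucp2 to Ucp3 was not tested, since Ucp3 had under 3 reads in most libraries outside mouse heart.

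**Figure D4:**
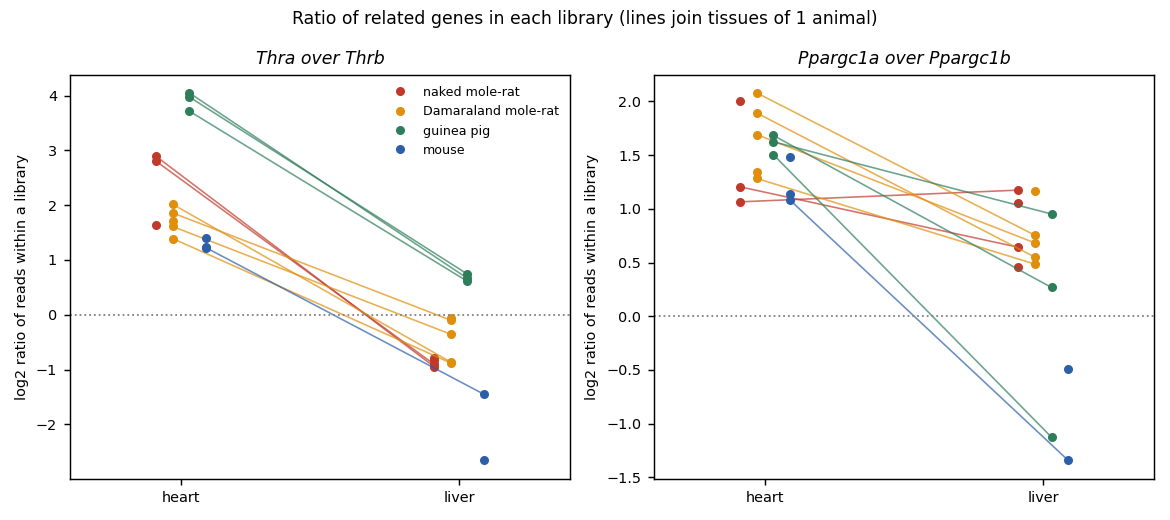
Log2 ratio of reads of Thra over Thrb and of Ppargc1a over Ppargc1b in each library, in heart and in liver. Points are libraries coloured by species, lines join both tissues of 1 animal, and the dotted line marks equal reads. All 10 lines fall from heart to liver for Thra over Thrb, and 9 of 10 for Ppargc1a over Ppargc1b.

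Several genes that carry or bind thyroid hormone differed between species in liver. Of 11 listed genes for transport, activation and binding of the hormone, 6 were tested in liver, and limma called 2 higher and 2 lower in the average of the mole-rats (median difference -0.59 against 0.02 for all genes tested). The counts of this and the following lists are for that average contrast, which called 23.4% of all genes tested in heart and 28.1% in liver, and no count is read as particular to a list. Crym, whose product binds thyroid hormone in the cytosol, read 14.48, 14.42, 14.61 and 14.87 in naked mole-rat liver, 7.16 to 7.92 in Damaraland, 6.29 to 6.36 in guinea pig and 5.07 and 5.23 in mouse. Naked mole-rat thus exceeded Damaraland by 6.96 (SE 0.16, limma adjusted p = 4.9e-16), with 24873 against 165 mean scaled reads, and Damaraland exceeded guinea pig by 1.30 (3.18e-06) and mouse by 2.48 (7.33e-09).

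Serpina7, which encodes the thyroxine-binding globulin of plasma, read 10.48 to 11.30 in naked mole-rat and 10.60 to 11.01 in Damaraland liver, which overlapped. It read 8.78 and 8.01 in mouse and 5.14, 4.29 and 4.75 in guinea pig, where the lowest library was at the floor. The average of the mole-rats was higher by 4.29 (SE 0.18, limma adjusted p = 3.2e-12). Slc7a5, an amino acid carrier that also takes up thyroid hormone, was lower in both mole-rats, by 1.09 to 1.14 in the 4 contrasts, at 5.16 to 6.30 in mole-rat and 6.55 to 6.88 in outgroup livers. Crym, Serpina7 and Slc7a5 were the genes of this list called with 1 sign in all 4 contrasts.

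Slc16a10, which encodes the transporter MCT10, was lowest in the Damaraland livers (6.87 to 7.42) that were also lowest in Dio1, and highest in mouse (11.23 and 11.02). Damaraland lay below naked mole-rat by 1.81 (SE 0.16, limma adjusted p = 2.88e-08), below guinea pig by 1.50 (SE 0.18, 9.57e-07) and below mouse by 3.97 (SE 0.20, 3.37e-11). Ttr, the plasma carrier transthyretin, averaged 15.36 in naked mole-rat, 15.70 in Damaraland, 16.43 in guinea pig and 16.16 in mouse liver, and naked mole-rat was below guinea pig by 1.07 (SE 0.29, limma adjusted p = 0.00388).

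**Figure D5:**
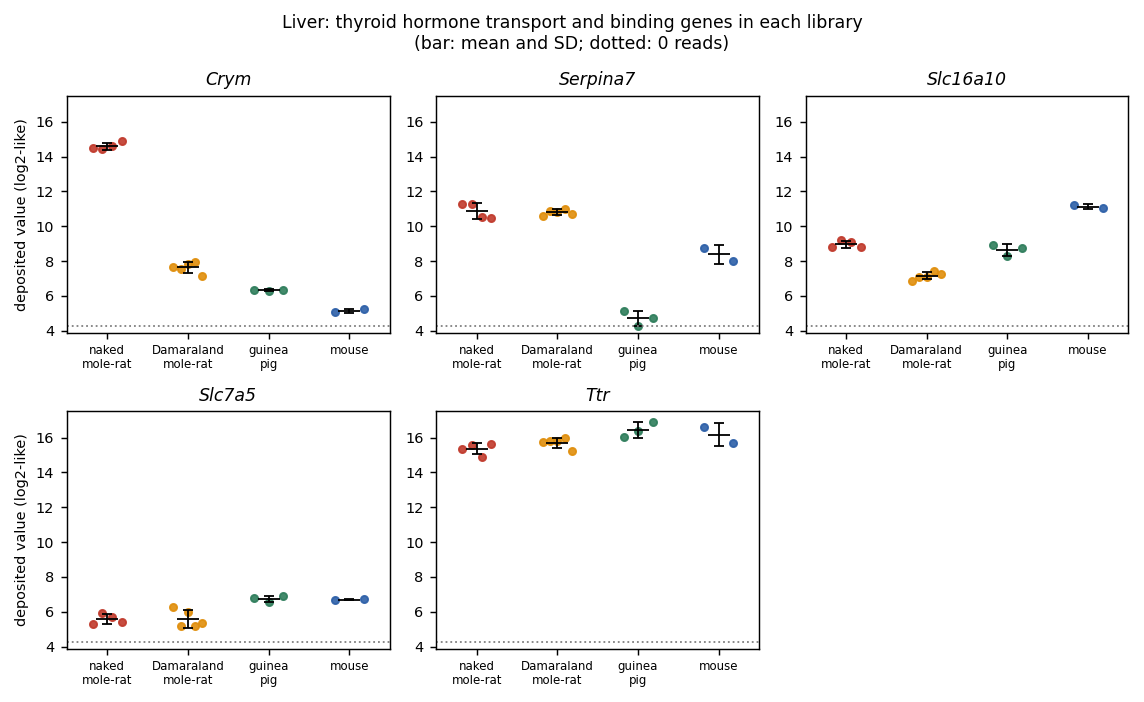
Value of 5 thyroid hormone transport and binding genes in each of the 14 liver libraries, by species, as the deposited log2-like value with mean and SD; the dotted line is 0 reads. Crym is above 14 in the 4 naked mole-rats alone, Slc16a10 is lowest in the 5 Damaraland mole-rats, and Serpina7 is highest in both mole-rats.

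In heart 5 of the 11 were tested, with a median difference of -0.36 for the list against -0.01 for all genes tested. The 2 called higher in the mole-rats were Crym, by 1.42, and Ttr, by 1.38 (limma adjusted p = 2.37e-05). Both were highest in naked mole-rat heart, at means of 8.21 and 8.87, the hearts with the highest sums of hepatocyte markers given above for Dio1. Crym passed the heart filter only through naked mole-rat, so its call is not read as a test result. Dio2, the activating deiodinase, had a row but was too low to be tested in either tissue, and was at 0 reads in all livers. Its heart values were 6.78, 7.12 and 6.81 in mouse, 6.31 to 6.47 in guinea pig and 5.67 to 6.18 in the mole-rats.

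Naked mole-rat stood apart in 2 partners of the receptors. Of 14 nuclear receptor partners and coregulators, all tested, 0 were called higher and 2 lower in the mole-rat hearts, and 1 higher and 3 lower in the livers (list medians -0.26 and 0.04), against 23.4% and 28.1% of all genes. The largest were Ncoa2 and Ncor1, a coactivator and a corepressor of nuclear receptors, and both were low in naked mole-rat in both tissues. Ncoa2 averaged 5.94 in naked mole-rat heart against 10.25 to 10.71 in the other species, and 4.36 in naked mole-rat liver, next to the floor, against 9.99 to 11.18. Ncor1 averaged 8.58 against 11.80 to 12.50 in heart and 8.03 against 11.31 to 11.74 in liver.

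Among genes known to respond to thyroid hormone, 4 of 15 tested in heart were higher and 1 lower in the mole-rats (list median -0.21). The largest was Myh7, the slow cardiac myosin, at a mean of 10.25 in mouse and 18.07 to 19.23 elsewhere, so the difference followed mouse. Pck1, an enzyme of glucose synthesis, was higher by 1.50 in the average, through the mole-rats that also brought it past the filter. Its mean was 8.45 in naked mole-rat heart, where hepatocyte markers summed highest, 7.14 in Damaraland, 6.20 in guinea pig and 6.39 in mouse. The part of those markers' cells in Pck1 was not tested. Atp2a2, the calcium pump of the sarcoplasmic reticulum, was lower by 1.05 and highest in mouse. In liver 4 of 14 were higher and 0 lower (list median 0.26), where 28.1% of all genes were called. The largest were Fasn, the fatty acid synthase, and Thrsp, a lipogenic gene induced by the hormone, and both were lowest in guinea pig, at means of 10.92 and 5.73 against 13.79 to 15.90 and 11.41 to 12.94.

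Partners and regulators of the coactivators gave 2 higher and 3 lower of 23 tested in heart, and 3 higher and 2 lower of 22 in liver (list medians -0.28 and -0.12). Esrrg, a nuclear receptor that works with PGC-1 in heart, and Mef2d, a muscle transcription factor, were lower in both mole-rat hearts than in both outgroups. Esrrg read 7.996 to 8.79 in the 8 mole-rat hearts and 10.09 to 10.69 in the 6 outgroup hearts (average difference -1.84, SE 0.14). Mef2d read 8.86 to 10.84 and 11.40 to 11.84, and its lowest value was naked mole-rat replicate 3, the shallowest library. Its SD in naked mole-rat heart was 1.11, and its call in both mole-rats was not repeated without that library. Hnf4a and Nrf1 were higher in heart, by 1.31 and 1.29, and Hnf4a is also on the hepatocyte list. In liver Perm1, a muscle regulator of mitochondrial genes, was highest in naked mole-rat at 8.15 (average difference 2.11), and Esrrb, a relative of Esrrg, in Damaraland at 8.72 (1.67). Prkaa2, a catalytic subunit of the kinase AMPK, was highest in mouse at 11.31 (-1.53), and Mef2d was lower by 1.11 in the average.

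Of 16 mitochondrial biogenesis genes tested, the average contrast called 1 higher in heart and 1 higher and 2 lower in liver (list medians -0.04 and -0.06). At least 1 pair of species was called for 9 of them in heart and 12 in liver, where 72% and 76.4% of all genes had one. Polg2, a subunit of the mitochondrial DNA polymerase, was higher by 1.25 in mole-rat heart. Polrmt, the mitochondrial RNA polymerase, was higher in both mole-rat livers, with means of 10.75 and 11.80 against 9.34 in guinea pig and 8.79 in mouse. Twnk, the mitochondrial helicase, and Cycs, which encodes cytochrome c, were lower in liver by 1.82 and 1.19 in the average, with the lowest means in naked mole-rat.

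Other inner membrane carriers with reported proton leak, or with sequence like the uncoupling proteins, gave 0 higher and 3 lower of 7 tested in heart (list median -0.82), led by Slc25a30, highest in guinea pig at 11.13, and Slc25a5, the adenine nucleotide carrier ANT2, highest in mouse at 12.03 as Ucp3 was. In liver 1 of 7 was higher and 2 lower (list median 0.12): Slc25a30 was lower in both mole-rats, at 7.06 and 6.90 against 9.40 and 11.09, Slc25a11 was lower by 1.065 in the average, and Slc25a27 was higher in Damaraland alone at 8.16 against 5.02 to 5.37.

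Genes of heat production without UCP1 gave 2 higher and 5 lower of 15 tested in heart, and 2 and 2 of 14 in liver (list medians -0.08 and -0.00). Sln, the muscle regulator of the calcium pump, ran from 6.55 to 9.95 in naked mole-rat hearts and from 7.37 to 10.66 in guinea pig hearts, where Damaraland hearts read 9.05 to 11.15 and mouse hearts 5.36 to 6.03. Its highest naked mole-rat value was that of replicate 3. Ckmt1, the mitochondrial creatine kinase, was lowest in mouse heart (5.80 against 8.19 to 9.27; average difference 2.11), while Ckb, the brain-type creatine kinase, was lowest in Damaraland heart (6.44 against 8.61 to 9.76) and lower in both mole-rat livers, at 4.75 and 4.93 against 6.95 and 6.64. In liver Ckb passed the filter only through the outgroups, where it was higher. Alpl, a phosphatase, was highest in mouse heart at 9.64. In liver Pm20d1, whose enzyme makes uncoupling lipids, was near the floor in guinea pig alone (4.77 against 11.02 to 12.12), Ryr1 was higher by 1.87, and Gatm, of creatine synthesis, was highest in guinea pig at 14.30.

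Brown and beige fat genes gave 1 higher and 1 lower of 6 tested in heart (list median -0.52), Bmp7 higher in both mole-rats (8.94 and 9.18 against 5.88 and 6.68) and Kcnk3 lower through mouse, at 12.93 against 5.98 to 6.53. In liver 2 of 6 were higher and 1 lower (list median 0.16). Kcnk3 was higher in Damaraland alone (7.21 against 4.62 to 5.37), Fgf21 averaged 7.01 and 6.95 in the mole-rats against 5.86 and 5.79, and Elovl3 was high in mouse alone (10.61 against 4.29 to 4.85). Bmp7 in heart, Kcnk3 in each tissue and Elovl3 in liver passed the filter only through the species where they were high. None of the 8 genes this account follows is a member of these lists.

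The genes whose values over the 14 libraries of a tissue lay closest to a member's, after each was centred on its own mean, are given as a description, by the root mean square difference. For Ucp3 in heart they were Tmem252 (0.27), Efnb3 (0.29) and Kcnip2 (0.35), all high in mouse. For Thrb in heart they were Fbxl20 (0.24), Pacs1 (0.24) and Wwp1 (0.24), and for Thra Cc2d1a (0.14), Zswim8 (0.15) and Caskin1 (0.18). For Dio1 in liver they were Stk24 (0.62), Ccng2 (0.68) and Slco2b1 (0.73); these differences are larger than for other members, as is the spread of Dio1 itself (2.32 about its mean). Stk24, a kinase gene, and Ccng2, a cyclin gene, were listed at 0 reads in all 5 Damaraland livers, whereas Dio1 and Slco2b1, an organic anion transporter gene, were low there but above 0.

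For Ucp2 the closest genes were Ccdc90b (0.39), Sike1 (0.40) and Larp4b (0.40) in heart and Slc10a3 (0.28), Fam122b (0.29) and Csnk1g3 (0.29) in liver. For Thra in liver they were Angptl6 (0.25), Tmem116 (0.25) and Cln6 (0.27), and for Thrb Taf4 (0.19), Kpna6 (0.19) and Ska2 (0.20). Ppargc1a lay closest to Pik3r4, Scfd1 and Slc50a1 in heart (0.21 each) and to Rnpepl1 (0.16), Zfp14 (0.21) and Rif1 (0.21) in liver. Ppargc1b lay closest to Cep290 (0.14), Brd1 (0.15) and Emid1 (0.16) in heart and to Zc3h8, Slc4a1ap and Prkrip1 in liver (0.26 each). No gene was among the 3 closest to the same member in both tissues.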

How the data were processed

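Total RNA depleted of ribosomal RNA was sequenced from heart and liver. Per the file headers and names, the authors deposited 1 table per tissue of variance-stabilised, log2-like values from Salmon estimates, transformed separately, so levels were not compared between tissues. Cutadapt, Salmon, DESeq2 and build GRCm38 are named in the submitters' processing notes; the matching of genes across species is not given in the sources used here. Of 13928 rows, 13921 matched a symbol, and 26 other columns of these tables were not used. Inverting the transform gave whole reads for 100% of values (within 0.01 of a read), and these gave the depths, scaled reads and ratios (0.5 reads added).

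Limma 3.58.1 in R 4.3.3 was fitted per tissue to the deposited log2 values of the genes with a mean at least 1 above the floor (10667 in heart, 10887 in liver), with species as coefficients, a variance trend and Benjamini-Hochberg adjustment per contrast. A call needed an adjusted p under 0.05 and a difference of at least 1. Voom on the recovered reads was an alternative, as were filters, scalings, variance models, weights and leaving out each library. The pipeline was tested on simulated data. Ratios, and members too low to pass, were compared by exact two-sided permutation tests. Replicates were separate animals per the labels. Same-numbered replicates are animals of different species, and 2 of 18 heart and 5 of 16 liver pairs had correlated deviations over 0.1, so numbers did not pair samples.

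All members were named; of each list, genes called with 1 sign in every mole-rat and outgroup pair and the 2 largest average differences per direction; and per member the 3 genes most like it. The members, lists and tests were chosen with earlier results of these data known. One gene of the thyroid hormone transport list is not reported here and was left out of its counts. No sequences are shown.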

Additional observations from a re-analysis of the deposited data

Results flagged for a closer look

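Among 28 sets of 4 or 5 libraries, counted over the 8 genes (where values differed) and the ratios Thra to Thrb and Ppargc1a to Ppargc1b, 4 had 1 library far from the others for the size of the set; such a gap arises by chance in about 1 in 20 groups. Damaraland heart replicate 4 read 6.08 for Dio1, where the others read 5.54 to 5.66, and 10.75 for Ppargc1b, where they read 9.98 to 10.18. Naked mole-rat liver replicate 4 read 4.68 for Ucp3, from 2 reads, with the others at 0 reads. Damaraland liver replicate 1 read 4.63 for Ucp3, from 1 read, with the others at 0. In these Ucp3 sets the other libraries were tied, so any read in 1 library makes such a gap. The rate of 1 in 20 does not hold for them.

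In 4 of 56 contrasts of a member, every library of the first species lay on one side in heart and on the other in liver. Ucp2 in Damaraland minus mouse was -1.50 in heart and 0.39 in liver. Ucp3 in naked mole-rat minus guinea pig was 0.11 in heart, from only 1 or 2 reads a library, and -0.71 in liver, from at most 12. In guinea pig minus mouse Ucp3 was -5.14 in heart and 0.56 in liver. Dio1 in naked mole-rat minus mouse was 1.51 in heart and -1.15 in liver. These differences between tissues were not tested, since each table was transformed on its own.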

How the results depend on the processing

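The count of members called in the average contrast was 2 in heart and 1 in liver. It was 4 and 6 with no size threshold. In heart it was 1 when tested against a difference of 1 and 1 among genes above the table median, where 5 members were tested, and 1 to 3 on leaving out each library, with 1 without naked mole-rat heart replicate 3 and 3 without naked mole-rat replicate 1 or guinea pig replicate 2. The count of calls over pairs of species was 11 of 36 in heart and 16 of 36 in liver, 20 and 25 with no size threshold, and 6 and 7 when tested against a difference of 1. With the replicate number as a replicate block, the counts were 2 and 11 in heart and 1 and 15 in liver, the liver call lost being Ppargc1a in Damaraland minus mouse (0.96). No member was shifted in both mole-rats under any alternative run. Of 240 alternatives to the 24 species tests of the ratios, 4 changed sign and none passed (lowest adjusted p = 0.202). The changes of sign were in the ratio of Ppargc1a to Ppargc1b: on leaving out each library, naked mole-rat minus mouse in heart ranged from -0.10 to 0.37, Damaraland minus guinea pig in heart from -0.0513 to 0.148, with -0.0046 without Damaraland replicate 3, and naked mole-rat minus Damaraland in liver from -0.0089 to 0.23. Low reads limit Ucp1, Ucp3 outside mouse heart, and Dio1 in heart.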
